A study of Homo sapiens with 21 samples.

Results

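The BCL2 family of apoptosis regulators was described here through 10 genes. They were the anti-apoptotic BCL2, BCL2L1 (which encodes BCL-XL) and MCL1, the pore-forming effectors BAX and BAK1, and the BH3-only genes BCL2L11 (which encodes BIM), BID, BAD, BBC3 (PUMA) and PMAIP1 (NOXA). The genes were taken by name and mapped to Ensembl identifiers. No measured value entered that mapping, but the members were chosen with earlier results of these data known. All 10 were found among the 61541 genes of the deposited gene count table and among the 57300 gene names of the exon bin files. In the bin files 3 of them stand under a joined name that also holds an overlapping gene: MCL1 with ADAMTSL4-AS1, BCL2L11 with ACOXL and BBC3 with MIR3191. In the gene table those partners held at most 2, 12 and 0 counts in any library, but their part in the bin counts was not tested. In GENCODE 29 (GRCh38), MCL1 lies at chr1:150574551-150579738 (- strand), BCL2L11 at chr2:111119378-111168447 (+ strand), BAX at chr19:48954815-48961798 (+ strand) and BID at chr22:17734138-17774770 (- strand), and counts cover their annotated exons.

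The family sets the threshold of mitochondrial apoptosis. BAX and BAK1 proteins open pores in the outer mitochondrial membrane and so release cytochrome c, the anti-apoptotic proteins bind and hold them back, and the BH3-only proteins either occupy the anti-apoptotic proteins or activate the effectors. In erythroid and myeloid leukaemia cells, survival commonly rests on BCL-XL and on MCL1, a protein of short half-life, and BIM is the BH3-only protein best known for rising when BCR-ABL signalling is blocked.

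The libraries were bulk RNA-seq of K562, an established BCR-ABL-positive line from a chronic myeloid leukaemia in blast crisis, with 3 libraries in each of 7 groups. One experiment compared cells with an empty vector, cells labelled MYB overexpression and cells labelled NMYB overexpression. MYB is a transcription factor of blood progenitors, the design text speaks of an N-terminally truncated MYB, and the label NMYB is not spelled out. The other experiments overexpressed, one at a time, the enhancer RNAs made from an enhancer upstream of MYB, labelled 34kn and 34kp, and each had a control group of its own. What the eRNA controls carried, the vectors' promoters and whether replicates were separate cultures are not given in the sources used here, and the spread behind each p-value may then be technical. Since the libraries are bulk, fewer cells expressing a gene and less RNA per cell cannot be told apart.

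Library totals were 16552237 to 24462819 gene counts and 36563252 to 41243796 bin counts, and replicates of a group differed beyond sampling noise in all 21 pairs. Levels are given as CPM (counts scaled to a common library size), from gene counts in the MYB experiment and from bin counts summed per gene in the eRNA experiments; the scales differ and were not compared. A gene was called changed where edgeR's adjusted p was below 0.05. K562 genes such as GATA1 (208 to 264 CPM) and TFRC (873 to 1232 CPM) were present in the gene table, while MS4A1, a B-cell gene, was at 0 counts in all libraries. MYB itself was at 217.1 ± 4.61 CPM (SD, n = 3) with the empty vector, 227.3 ± 5.13 in the libraries labelled MYB overexpression and 208.3 ± 9.16 in those labelled NMYB overexpression. These counts do not bear out the labelled overexpression, so "with MYB" and "with NMYB" stand here for the libraries so labelled, and each direction rests on the labels. Of the 34kn controls, library 1 stood apart. It was the highest of the 6 libraries of its experiment for 7 of the 10 genes and the lowest for 2 more. Of all 16116 tested genes, it was the highest for 30.5% and the lowest for 29.95%. Overexpression library 1 of 34kp was the highest of its experiment for 6 of the 10 (24.9% of 16662 genes).

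RefSeq promoter windows (GRCh38.p14) were matched for 9 of the 10 genes, in 15 windows, of which the 250 bases before the start were read; MCL1 had no entry. The windows of BCL2L11, called with MYB, and BAX, called with NMYB, are shown 5′ to 3′ on the gene's strand. BID was also called with NMYB. Its windows are not shown, and none of them held a match to a searched motif. That of BCL2L11 spans chr2:111120664-111120913 on the + strand and that of BAX chr19:48954625-48954874 on the + strand. Capitals mark a match to a searched motif.
BCL2L11: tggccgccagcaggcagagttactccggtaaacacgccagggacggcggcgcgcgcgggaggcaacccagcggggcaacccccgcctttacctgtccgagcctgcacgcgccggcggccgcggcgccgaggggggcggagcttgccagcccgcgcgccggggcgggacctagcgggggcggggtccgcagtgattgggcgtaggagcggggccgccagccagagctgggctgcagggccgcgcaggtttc
BAX: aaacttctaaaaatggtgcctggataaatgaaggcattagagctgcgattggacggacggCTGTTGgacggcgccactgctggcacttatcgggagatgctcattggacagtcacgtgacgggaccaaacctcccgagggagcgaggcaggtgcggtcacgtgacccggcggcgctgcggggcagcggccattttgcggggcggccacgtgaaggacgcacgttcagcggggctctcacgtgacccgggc
Motifs were searched on both strands. The core bound by MYB was searched as CAACNG, and separately with T in place of its first letter as TAACNG. The GATA motif was AGATAA and the STAT motif was TTCNNNGAA. The capitals in the BAX window are CAACNG read on the opposite strand, starting 190 bases before the start. CAACNG was in 3 of the 15 windows (BAX and both of BAD, whose windows overlap and hold the same match) and in 27.0% of all 35116 promoter windows. The other motifs were in none of the 15, against 17.6% of all windows for the second MYB form, 9.17% for the GATA motif and 6.57% for the STAT motif. A match is only a run of letters in the window. The BCL2L11 window is rich in G and C (76.8%, against 62.8% for BAX).

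K562 cells expressed all 10 genes, with MCL1 far above the others. Per kilobase of annotated exon, MCL1 averaged 92.4 CPM per kb over the 9 libraries of the MYB experiment (80.3 to 112), and BCL2L1 followed at 40.6 (36.3 to 43.7). The effectors BAX (18.9) and BAK1 (16.6 CPM per kb) overlapped in their ranges. BID (12.7) and PMAIP1 (8.81 CPM per kb) came next and overlapped neither each other nor their neighbours. BCL2L11 (3.35), BAD (3.20) and BBC3 (2.59 CPM per kb) formed a low group in which each overlapped the next. BCL2 was last at 0.129 CPM per kb, from 20 to 40 counts a library, so that changes of BCL2 were measured with wide error throughout.

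**Figure D1:**
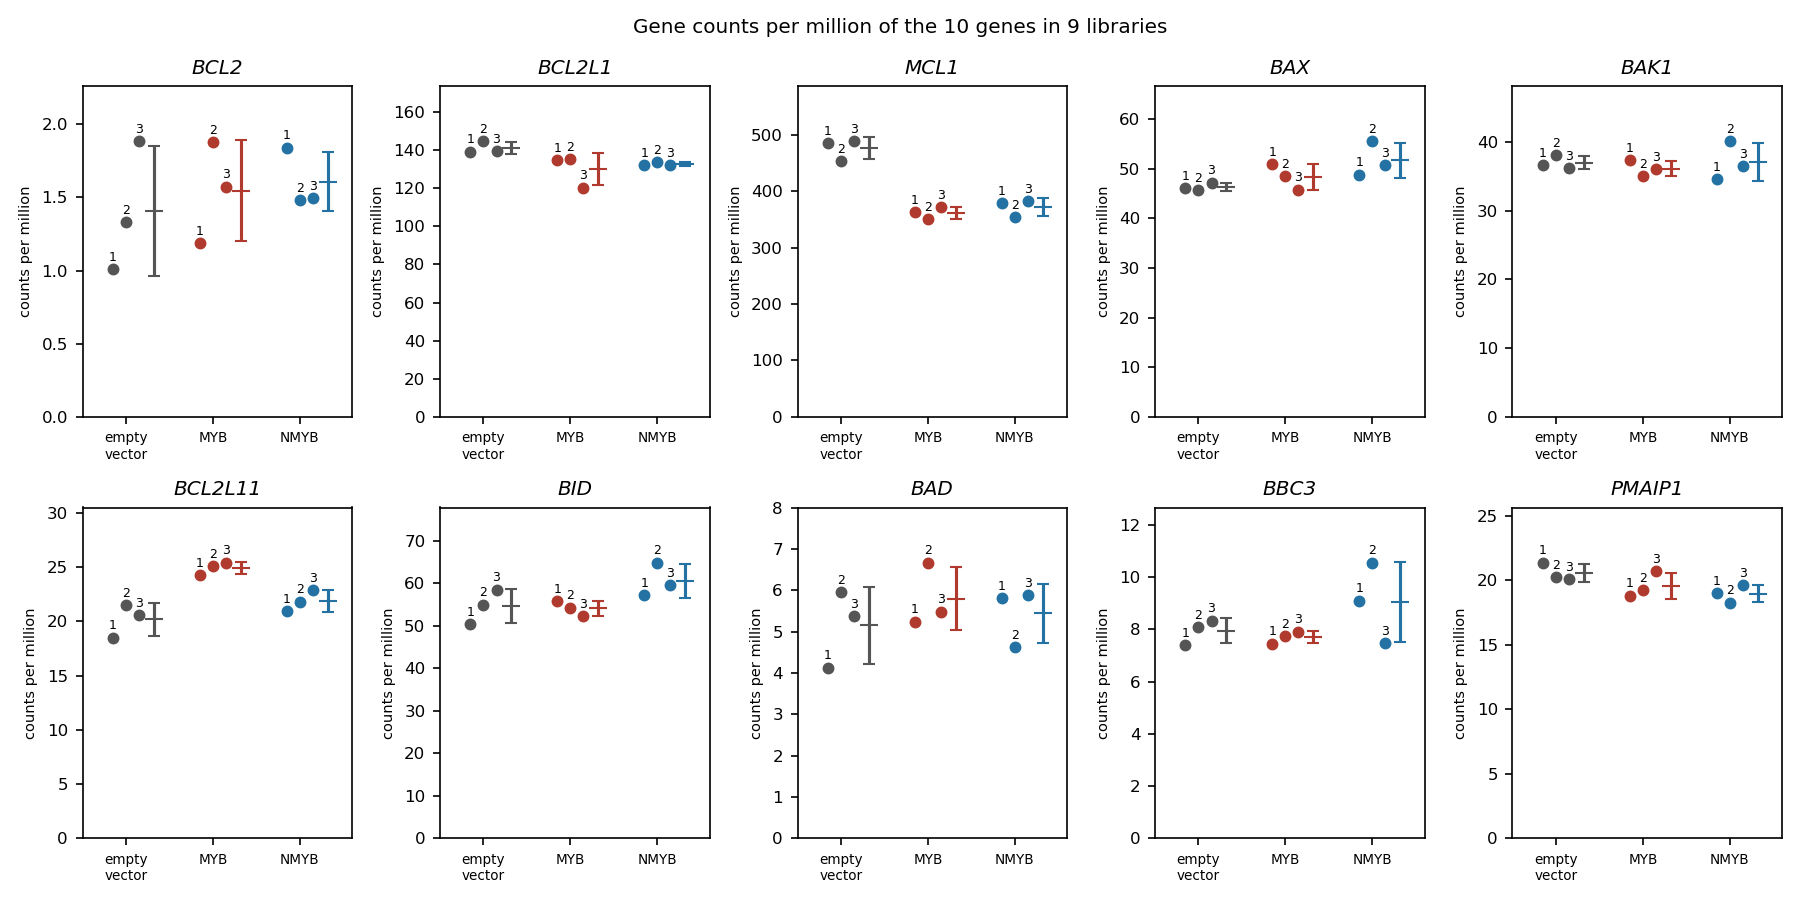
CPM (y axis, from 0) of each of the 10 genes in the 9 libraries of the MYB experiment, by group (x axis); points are libraries with their replicate number and the bar beside them is mean and SD. MCL1 lies at 454 to 489 CPM with the empty vector and at 351 to 383 CPM in the other groups, and BCL2L11 is highest in the libraries labelled MYB overexpression.

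In the libraries labelled MYB overexpression, MCL1 was lower and BCL2L11 higher than with the empty vector. These were the 2 of the 10 genes called, next to 22.3% of the 15823 genes tested, so the share of the family is near that of all genes. The median log2 fold change of the family was -0.01, against 0.01 over all genes.

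MCL1, the anti-apoptotic gene, was at 486, 454 and 489 CPM with the empty vector and at 364, 351 and 372 CPM with MYB. Every MYB library was below every empty-vector library. MCL1 fell by 0.39 on the log2 scale (SE 0.04, adjusted p = 2.83e-06), a ratio of 0.766 with a 95% interval of 0.719 to 0.815. The call held in all 11 alternatives, with log2 changes of -0.41 to -0.35 on leaving out a library.

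BCL2L11, the gene of BIM, was at 18.5, 21.5 and 20.6 CPM with the empty vector and at 24.3, 25.1 and 25.4 CPM with MYB. All MYB libraries were above all empty-vector libraries. BCL2L11 rose by 0.32 on the log2 scale (SE 0.07, adjusted p = 0.00392), a ratio of 1.25 with a 95% interval of 1.12 to 1.38. This call too held in all 11 alternatives. The log2 ratio of MCL1 to BCL2L11 CPM was 4.72, 4.40 and 4.57 with the empty vector and 3.90, 3.81 and 3.87 with MYB. It was 4.18, 4.02 and 4.06 with NMYB, between those groups and overlapping neither. Both genes were called with MYB, so the ratio is not a separate test. Between NMYB and MYB neither gene passed by edgeR (adjusted p = 0.480 for MCL1 and 0.238 for BCL2L11).

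Among the other anti-apoptotic genes, BCL2L1 was at 139, 145 and 139 CPM with the empty vector and at 135, 135 and 120.3 CPM with MYB. Every MYB library was lower, but the difference of -0.11 did not pass (adjusted p = 0.149). BCL2 was at 1.41 ± 0.444 and 1.55 ± 0.346 CPM (SD, n = 3 each), a log2 difference of 0.15 whose 95% interval ran from -0.38 to 0.68. The effectors BAX (0.08) and BAK1 (-0.02) and the BH3-only genes BID (-0.00), BAD (0.19), BBC3 (-0.03) and PMAIP1 (-0.06) had log2 differences with adjusted p of 0.400 to 0.985. The 95% intervals of BAX, BAK1, BID and PMAIP1 lay within -0.22 to 0.21 on the log2 scale, and that of BAD reached 0.50.

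In the libraries labelled NMYB overexpression, MCL1 was lower and BAX and BID were higher than with the same 3 empty-vector libraries. These 3 calls of 10 stand beside 24.9% of all genes. MCL1 was at 379, 354 and 383 CPM, again below every empty-vector library. It fell by 0.32 on the log2 scale (SE 0.04, adjusted p = 2.60e-05), and the call held in all 11 alternatives.

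BAX, the effector, was at 46.0, 45.7 and 47.2 CPM with the empty vector and at 48.8, 55.5 and 50.7 CPM with NMYB. Every NMYB library was above the empty-vector libraries, with library 2 the highest. The log2 change was 0.19 (SE 0.06, adjusted p = 0.0304). BID, which caspase 8 cleaves to link death receptors to mitochondria, was at 50.4, 55.0 and 58.5 CPM with the empty vector and at 57.3, 64.8 and 59.5 CPM with NMYB. The groups overlap, and NMYB library 2 is again the highest. Its log2 change was 0.18 (SE 0.06, adjusted p = 0.0441).

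Both calls depend on single libraries. Without NMYB library 2 the log2 changes were 0.13 for both BAX (adjusted p = 0.102) and BID (adjusted p = 0.125). The BAX call was also lost without empty-vector library 1, 2 or 3 (adjusted p = 0.0789, 0.0992 and 0.0763), and the BID call without empty-vector library 1 or 2 (0.216 and 0.0999) or NMYB library 3 (0.0588). DESeq2 called neither (adjusted p = 0.0636 and 0.0848), nor did edgeR with no filter on low counts (0.115 and 0.134). The BID call was also lost with RLE scaling (0.0502) and in a fit of only the compared groups (0.0732).

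BCL2L11 was at 20.9, 21.8 and 22.9 CPM with NMYB, overlapping the empty-vector libraries. Its log2 difference was 0.15 (adjusted p = 0.149). BBC3, a p53 target, was at 7.41, 8.09 and 8.34 CPM with the empty vector, 7.46, 7.75 and 7.92 with MYB and 9.10, 10.6 and 7.48 with NMYB, where the libraries are widely spread. The NMYB difference of 0.22 did not pass (adjusted p = 0.200); without NMYB library 3 it was 0.34 and passed (adjusted p = 0.0418). BCL2 (0.24), BCL2L1 (-0.06), BAK1 (0.04), BAD (0.13) and PMAIP1 (-0.08) had adjusted p of 0.448 to 0.737.

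Tested directly, NMYB against MYB gave 0 calls among the 10 genes by edgeR, beside 1.14% of all genes. At an unadjusted p under 0.05 there were 3 of the 10 (17.7% of all genes), and DESeq2 called 0 of the 7 to which it gave an adjusted p. BID was higher with NMYB than with MYB in every library (MYB 55.8, 54.2 and 52.2 CPM), by 0.18 on the log2 scale (adjusted p = 0.141). BCL2L11 was lower in every library, by -0.16 (95% interval -0.31 to -0.01, adjusted p = 0.238). BBC3 differed by 0.25 with overlapping groups (adjusted p = 0.272). MCL1 differed by 0.06, with an interval of -0.03 to 0.15. So although BCL2L11 passed only with MYB and BAX and BID only with NMYB against the empty vector, these groups were not shown to differ in these genes.

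**Figure D2:**
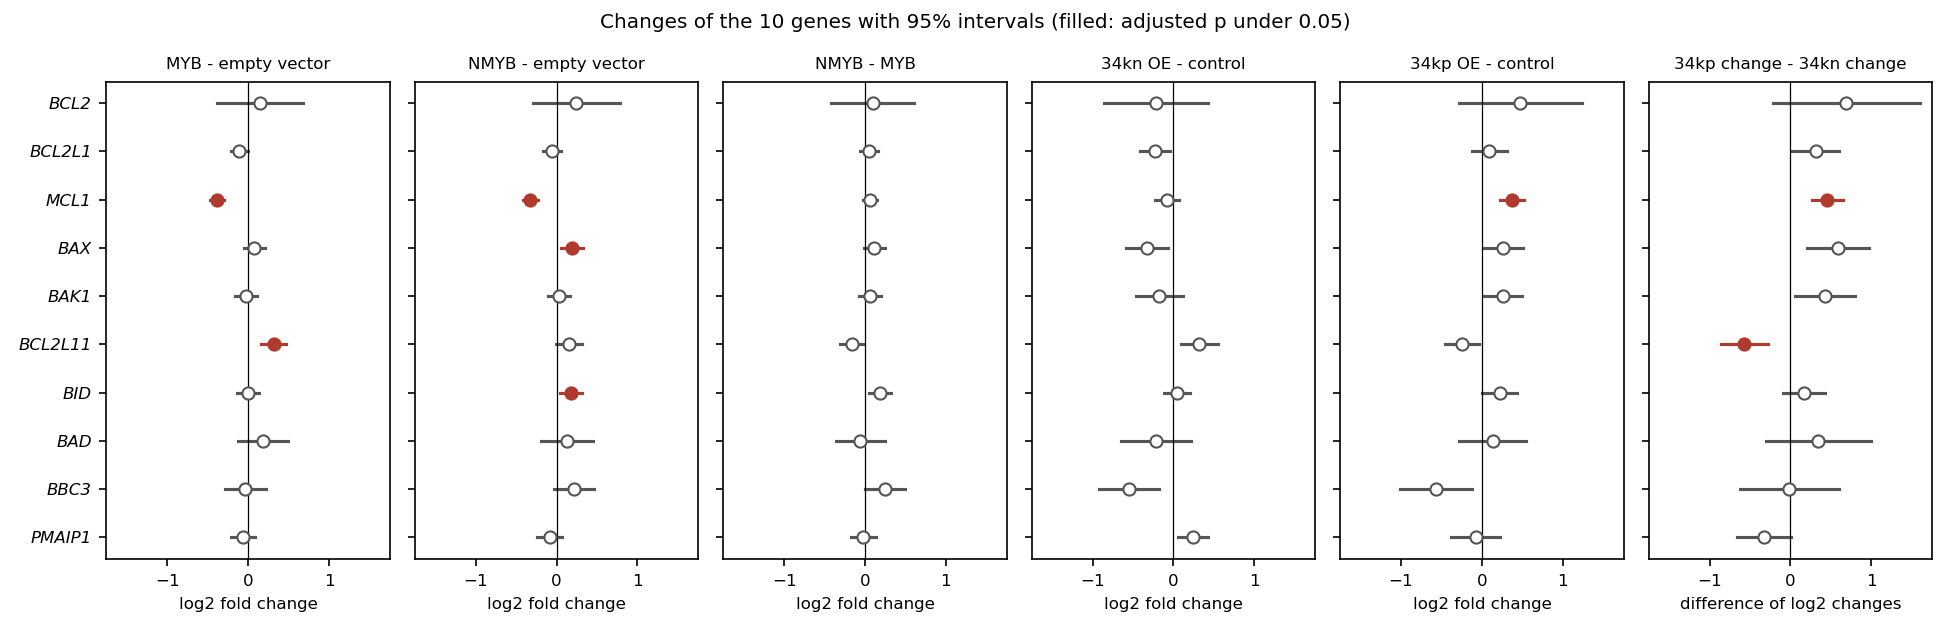
Log2 fold change of each gene (rows) in the 5 group comparisons and, in the last panel, the 34kp change minus the 34kn change; bars are 95% intervals and filled points passed an adjusted p of 0.05. MCL1 is lower in both MYB panels (-0.39 and -0.32), higher in the 34kp panel (0.38), and BCL2L11 lies on opposite sides of 0 in the 34kn and 34kp panels (0.32 and -0.25).

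Overexpression of the 34kn eRNA gave 0 calls among the 10 genes by edgeR, and 0% of all 16116 genes were called. At an unadjusted p under 0.05 there were 5 of the 10 and 3759 genes in all (23.3%). DESeq2 called 1263 genes, among them 2 of the 9 members to which it gave an adjusted p, BCL2L11 and BBC3, and edgeR with no filter on low counts called those and BAX. The members' median log2 difference was -0.19, against 0.00 over all genes, and -0.0096 without control library 1. Values without control library 1, where no member was called either, are given beside the full ones.

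BBC3 was at 37.3, 23.3 and 23.9 bin CPM in the 34kn controls and at 18.1, 17.7 and 22.3 with 34kn overexpression. Every overexpression library was lower, and control 1 was far above the rest. The log2 difference was -0.55 (SE 0.17, adjusted p = 0.102), and -0.29 without control 1 (adjusted p = 0.141). BCL2L11 was at 17.5, 21.8 and 22.1 in the controls, where library 1 was the lowest, and at 25.7, 25.6 and 26.0 with 34kn. All overexpression libraries were higher, by 0.32 (SE 0.10, adjusted p = 0.109), or 0.22 without control 1 (adjusted p = 0.170).

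PMAIP1, the gene of NOXA, which binds MCL1, was at 19.0, 20.3 and 20.05 bin CPM in the controls and at 23.4, 23.5 and 24.0 with 34kn. The groups do not overlap, and the difference of 0.24 (SE 0.09, adjusted p = 0.131) was 0.22 without control 1. BCL2L1 was at 170.4, 133 and 144 in the controls and at 126, 128 and 131 with 34kn. All overexpression libraries were lower, by -0.23 (SE 0.08, adjusted p = 0.143), and by -0.12 without control 1 (adjusted p = 0.274). BAX was at 79.8, 58.6 and 55.2 in the controls and at 49.1, 55.3 and 51.3 with 34kn. Its difference of -0.33 (adjusted p = 0.140) was -0.14 without control 1. Leaving out control 2 instead gave calls for BCL2L1 (-0.30, adjusted p = 0.0143), BCL2L11 (0.37, 0.0355) and BBC3 (-0.67, 0.0227). That fit called 2982 of all 16528 genes tested.

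MCL1 was at 274, 237 and 245 bin CPM in the controls and at 247, 229 and 244 with 34kn, overlapping groups with a difference of -0.08 (95% interval -0.23 to 0.07, adjusted p = 0.495), or -0.01 without control 1. BAK1 (-0.17), BID (0.05), BAD (-0.21) and BCL2 (-0.22) had adjusted p of 0.454 to 0.739. Without control 1, BAK1 was at -0.03, BID at 0.08 and BCL2 at -0.00. The sign of the BAD difference turned without control 1 (0.09), in which BAD was at 9.16 bin CPM against 5.06 and 5.84 in the other controls.

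**Figure D3:**
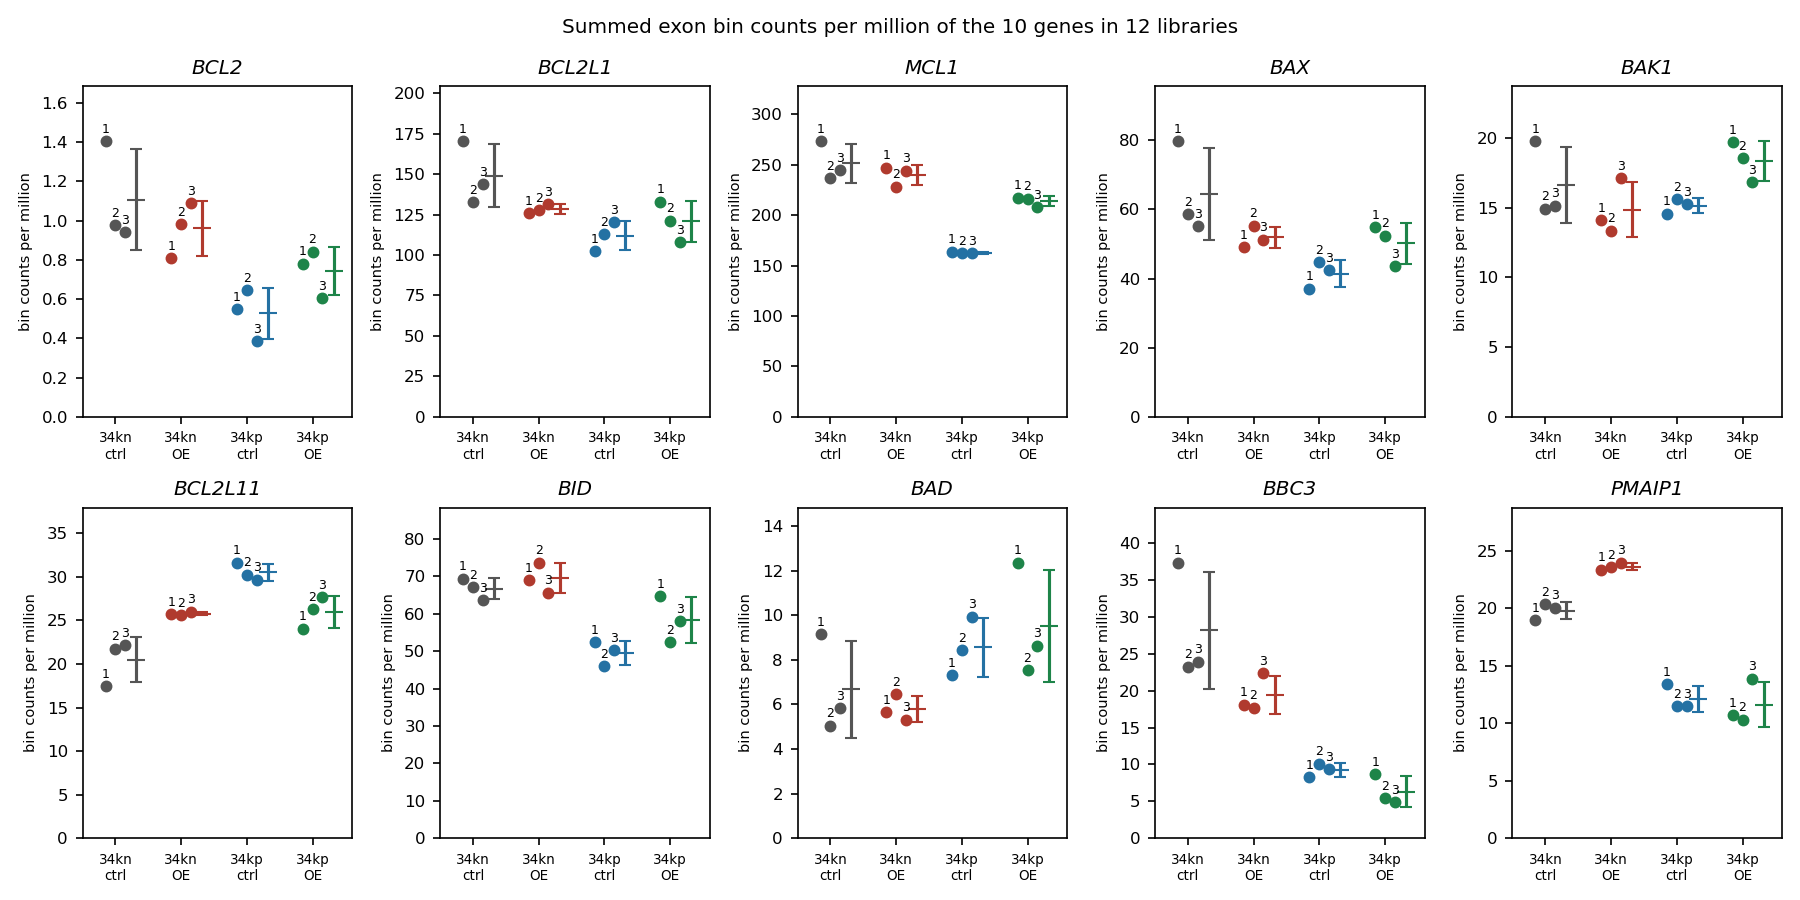
Summed exon bin CPM (y axis, from 0) of each gene in the 12 eRNA libraries, by group (x axis); points are libraries with their replicate number and the bar beside them is mean and SD. Control 1 of 34kn is the highest of its experiment for BCL2, BCL2L1, MCL1, BAX, BAK1, BAD and BBC3, and MCL1 lies at 162 to 164 in the 34kp controls and at 208 to 217 with 34kp.

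Overexpression of the 34kp eRNA gave 1 call, a higher MCL1, beside 2.35% of all 16662 genes. MCL1 was at 163.9, 162.2 and 162.3 bin CPM in the controls and at 217.5, 216.5 and 208.3 with 34kp. The groups are far apart relative to their spread. MCL1 rose by 0.38 on the log2 scale (SE 0.07, adjusted p = 0.0161), a ratio of 1.30 with a 95% interval of 1.17 to 1.44. The size held on leaving out any library (0.37 to 0.40), but the call was lost without control 1, 2 or 3 (adjusted p = 0.0806, 0.140 and 0.0843) or overexpression 2 (0.110), fits in which 46 to 158 genes were called in all. It was also lost with replicate number fitted as a block (adjusted p = 0.163), where 71 genes were called. It held without overexpression 1, the library that was highest for most of the family (0.37, adjusted p = 0.0112).

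At an unadjusted p under 0.05 there were 5 of the 10 members, beside 17.9% of all genes. By rising p they were MCL1, BBC3, BCL2L11, BAK1 and BAX. BCL2L11 was at 31.6, 30.2 and 29.7 bin CPM in the 34kp controls and at 24.0, 26.3 and 27.7 with 34kp. All overexpression libraries were lower, by -0.25 (SE 0.09, adjusted p = 0.197). BBC3 was at 8.25, 10.1 and 9.39 in the controls and at 8.70, 5.43 and 4.87 with 34kp. Overexpression library 1 overlapped the controls, and the difference of -0.56 (SE 0.20, adjusted p = 0.180) was -0.86 without it (adjusted p = 0.0102). The fit without it called 614 of 17148 genes. With no filter on low counts BBC3 was called at -0.55 (adjusted p = 0.0210).

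BAK1 was at 14.6, 15.6 and 15.3 bin CPM in the controls and at 19.7, 18.5 and 16.8 with 34kp. All overexpression libraries were higher, by 0.26 (SE 0.11, adjusted p = 0.241). BAX was at 37.1, 44.7 and 42.5 in the controls and at 54.9, 52.4 and 43.6 with 34kp, where library 3 overlapped the controls. Its difference of 0.26 (adjusted p = 0.261) was 0.36 without overexpression 3 (adjusted p = 0.0489), in a fit that called 1175 of 17142 genes. BID (0.22), BCL2 (0.48), BCL2L1 (0.09), BAD (0.13) and PMAIP1 (-0.08) had adjusted p of 0.282 to 0.812. The sign of the BAD difference turned without overexpression 1 (-0.10).

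The control groups of the eRNA experiments also differed in level, which was not tested and cannot be told apart from the experiment. BBC3 averaged 28.2 ± 7.93 bin CPM (SD, n = 3) in the 34kn controls and 9.25 ± 0.939 in the 34kp controls. MCL1 averaged 251.7 ± 19.4 and 162.8 ± 0.953, and PMAIP1 19.8 ± 0.716 and 12.1 ± 1.11. BCL2L11 went the other way, from 20.5 ± 2.58 in the 34kn controls to 30.5 ± 0.996 in the 34kp controls. With either eRNA, BCL2L11 stood at a like level, 25.8 ± 0.202 with 34kn and 26.0 ± 1.83 with 34kp.

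The response to the eRNAs differed for 2 of the 10 genes when tested as an interaction over the 12 libraries, beside 6.36% of all 17323 genes. For MCL1 the 34kp change exceeded the 34kn change by 0.46 on the log2 scale (SE 0.09, adjusted p = 0.00976). The call held on leaving out each of the 12 libraries (adjusted p of 0.00389 to 0.0389). It was lost with replicate number fitted as a block (adjusted p = 0.0745), a fit that called 105 genes in all. For BCL2L11 the 34kp change was below the 34kn change, by -0.57 (SE 0.14, adjusted p = 0.0244). That call held without 34kn control 1 (-0.47, adjusted p = 0.0461) but was lost without any one of 6 libraries: 34kn overexpression 1, 2 or 3, 34kp control 1 or 2, and 34kp overexpression 2, with adjusted p of 0.0585 to 0.0656. BAX had the next smallest p, at 0.58 (SE 0.18, adjusted p = 0.0631). It was called without 34kn control 2 or 3 (0.66 and 0.69, adjusted p = 0.0370 and 0.0497) or 34kp overexpression 3 (0.68, adjusted p = 0.0165). Those fits called 1867, 603 and 2747 genes in all. DESeq2 and edgeR with no filter on low counts also called BAX, in fits that called 2010 and 2085 genes. PMAIP1 did not pass (adjusted p = 0.224) but was called without 34kp overexpression 3 (0.0301). The remaining members had adjusted p of 0.146 to 0.985, with BBC3 at -0.01 and a 95% interval of -0.63 to 0.60.

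The log2 ratio of MCL1 to BCL2L11 bin CPM shows these differences by library. It was 3.97, 3.44 and 3.47 in the 34kn controls and 3.27, 3.16 and 3.23 with 34kn. In the 34kp controls it was 2.37, 2.42 and 2.45, and 3.18, 3.04 and 2.91 with 34kp. It was lower in every 34kn library than in its controls and higher in every 34kp library than in its controls. Both genes were called in the interaction, so this ratio is not a separate test. The log2 ratio of MCL1 to PMAIP1 separated the groups in the same directions. That of BCL2L1 to BAX did not: with 34kn it overlapped the controls. In the 34kp controls it was 1.468, 1.337 and 1.503, and it was lower in every 34kp library (1.277, 1.211 and 1.311).

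Exon usage, the question the design text names for the eRNA experiments, asks whether a bin's share of its gene's counts changed. For 34kn, 1 of 9 member genes was called, beside 7.24% of genes, and 2 of 105 member bins, beside 0.794% of bins; BCL2 had no bin with enough counts. At an unadjusted p under 0.05 there were 10 of the 105 member bins, beside 8.64% of all bins. The called gene was MCL1 (adjusted p = 0.0361), in its bins 20 and 21. Bins are named by their number in the deposited files, and their positions are not given in the sources used here.

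MCL1 bin 20 held 5.30, 1.84 and 2.78% of the bin counts of MCL1 in the 34kn controls and 1.23, 1.49 and 1.44% with 34kn. All overexpression libraries were lower, and control 1 was far above the rest. The log2 change in usage was -1.30 (adjusted p = 0.0291). Bin 21 held 4.90, 1.40 and 2.19% in the controls and 1.05, 1.27 and 1.27% with 34kn, a change of -1.29 (adjusted p = 0.0403). In bins 22 and 23 control 1 held 4.01 and 3.36% and the other 5 libraries 0.734 to 1.65%. There the groups overlapped, and the bins did not pass (adjusted p = 0.0698 and 0.192).

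Without control 1 the change of bin 20 was -0.74 (adjusted p = 0.0249) and that of bin 21 was -0.59 (adjusted p = 0.261), and MCL1 was still called (adjusted p = 0.0343). The call was lost without control 3 (adjusted p = 0.0664), without overexpression 1, 2 or 3 (0.524, 0.371 and 0.294) and with limma voom (0.187). It was also lost with replicate number fitted as a block (0.159). Without control 2, BAX was called alongside MCL1 (adjusted p = 0.0154), in a fit that called 2646 of 11638 genes. In BAX, bins 3, 4 and 7 held 3.23, 5.64 and 7.34% in control 1, against 0.841 to 1.05%, 1.42 to 2.31% and 2.63 to 4.86% in the other 5 libraries. Their adjusted p were 0.449, 0.159 and 0.245. Whether the state of control 1 accounts for these bins was not tested.

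For 34kp, 0 of 9 member genes and 0 of 106 member bins were called by edgeR, beside 0.0853% of genes and 0.00862% of bins; 3 member bins had an unadjusted p under 0.05 (2.19% of all bins did), and limma voom called 0 genes of the family. Those bins were bins 18 and 19 of BID and bin 17 of BAX. Bin 18 of BID held 6.88, 6.37 and 7.50% in the controls and 9.25, 9.79 and 8.36% with 34kp, a log2 change of 0.39 (adjusted p = 1.00). All overexpression libraries were higher. MCL1 bin 20 held 1.05, 1.45 and 1.59% in the 34kp controls and 3.54, 1.90 and 0.999% with 34kp, where library 1 was above all others. Its change was 0.67 (adjusted p = 1.00), and 0.10 without overexpression 1.

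**Figure D4:**
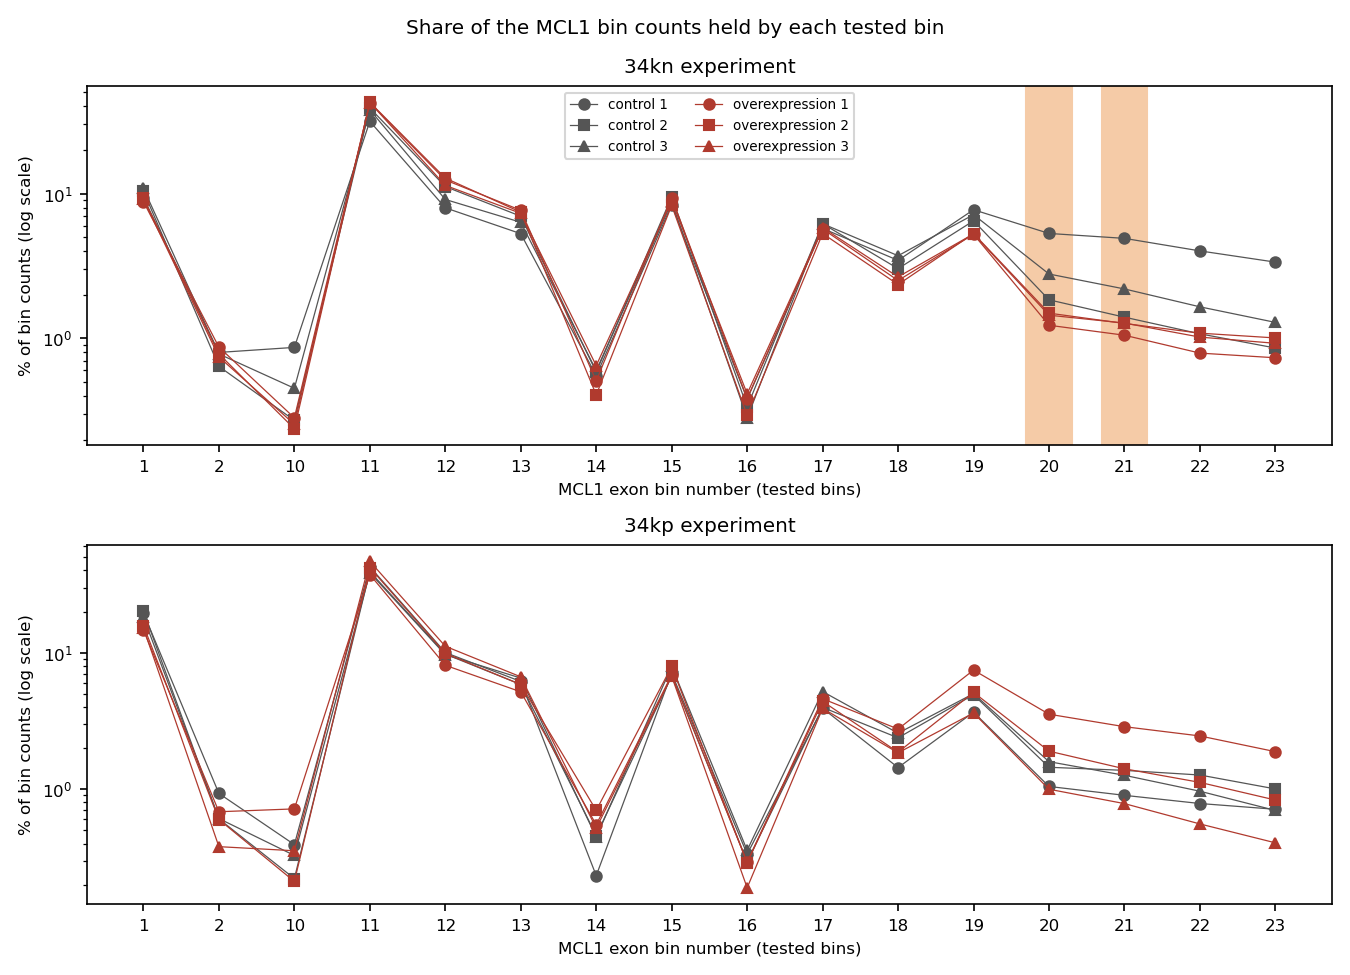
Share of the MCL1 bin counts (y axis, log scale, percent) held by each of the 16 tested bins (x axis, bin number) in the 6 libraries of each eRNA experiment; shading marks bins 20 and 21, called in 34kn. Control 1 of 34kn lies above all other libraries at bins 20 to 23 (3.36 to 5.30%), and overexpression 1 of 34kp is the highest of its experiment at the same bins.

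Around the family, 79 other apoptosis genes in 8 lists were counted, of which 72 to 75 were tested. With MYB 13 were higher and 15 lower, and with NMYB 15 were higher and 13 lower, with medians of 0.00 in both. The called genes were 38.9% of those tested in each comparison, beside 22.3% and 24.9% of all genes. Because the lists were chosen with earlier results of these data known, these shares cannot show an excess. BTG2, a p53 target that restrains proliferation, fell by 0.79 with MYB (adjusted p = 4.33e-08) and by 0.71 with NMYB (2.95e-07). CFLAR, the inhibitor of caspase 8, fell by 0.48 and by 0.50, and TNFRSF10B, a TRAIL receptor, fell by 0.50 and by 0.46. Both changes passed in each comparison. The other named genes also passed in both comparisons and in the same direction. BNIP3L (-0.41 with MYB, -0.32 with NMYB), CASP9 (-0.42 and -0.31) and STAT5B (-0.27 and -0.26) fell. The caspase inhibitor XIAP (0.44 and 0.18) and the kinase gene PIM2 (0.26 and 0.26) rose. FADD, the death receptor adaptor, was at 1.81 ± 0.339 CPM with the empty vector and 7.54 ± 1.66 with NMYB (SD, n = 3 each), log2 changes of 1.31 with MYB and 2.09 with NMYB.

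NMYB against MYB gave 2 higher and 2 lower genes of 72 in these lists (1.14% of all genes were called): CDKN1A (0.41) and GATA1 (0.18) were higher, MDM2 (-0.24) and BIRC6 (-0.19) lower. With 34kn, 0 of 73 passed. With 34kp, 2 of 75 were higher and 7 lower, beside 2.35% of all genes called. The stress factor DDIT3 fell by 1.12 (adjusted p = 0.000307, under a name joined with an unnamed gene). FOXO3, a transcription factor that activates BCL2L11, fell by 0.79 (adjusted p = 0.00272). SESN2 (-0.69), TNFRSF10B (-0.66) and BNIP3L (-0.78) also fell, and STAT5A, which activates BCL2L1, rose by 0.56 (adjusted p = 0.00394). The interaction called 8 higher and 7 lower of 75, beside 6.36% of all genes, and the 6 of smallest p were the same genes, from -1.09 for DDIT3 to 0.61 for STAT5A.

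Over the 9 libraries of the MYB experiment, the genes whose log2 CPM ran most like that of MCL1 were LDHA (Pearson r = 0.996), CCNG1 (0.992) and PDK1 (0.991). For BCL2L11 they were MEIS2 (0.968), OR51I2 (0.951) and ZNF426 (0.947), and for BAX they were ASCC2 (0.967), MED9 (0.951) and TRMT1 (0.942). These are descriptions over libraries that form 3 groups; r within a group was not computed.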

How the data were processed

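The deposited values were raw counts: a table of gene counts (MYB experiment) and exon bin counts per library (eRNA experiments), which the authors deposited unnormalized. The submitters' processing notes list Trimmomatic 0.93 and GRCh38 for both kinds of file, STAR 2.7.10a for the bins, and HISAT2 2.2.1 and featureCounts 2.0.1 for the gene table. Annotation release, strand setting and treatment of multi-mapping reads are not given in the sources used here, so antisense and overlapping genes cannot be told apart. Bin sums are not reads, as 1 read may add to more than 1 bin, and the tables were not fitted together.

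Groups come from the labels. Tests were two-sided edgeR 4.0.16 (R 4.3.3) quasi-likelihood tests with TMM scaling, a minimum count of 10 and Benjamini-Hochberg adjustment over all genes tested: 1 fit of 9 libraries for the gene table, 6 per eRNA experiment, 12 for the interaction. CPM are computed from the TMM-scaled counts. Exon usage was tested with diffSpliceDGE (Simes p per gene). Scripts were tested on simulated data. Exon lengths are from GENCODE 29, which may differ from the release behind the counts. Alternatives were RLE scaling, no filter on low counts, DESeq2 1.42.0, other sets of libraries in the fit, a replicate block, limma 3.58.1 voom and a minimum count of 30 for bins, and leaving out each library.

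All 10 genes are named in every comparison. From the other apoptosis lists up to 6 genes per comparison with the smallest p are named, and nearest patterns are the 3 genes of highest r for the 3 called members of smallest p. Members and lists were chosen with earlier results of these data known.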

Additional observations from a re-analysis of the deposited data

Results flagged for a closer look

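The change of MCL1 with 34kp exceeded that with 34kn by 0.46 on the log2 scale, as a test of the difference between the eRNA experiments over 12 libraries (edgeR, adjusted p = 0.00976). The MCL1 change was 0.38 with 34kp and -0.08 with 34kn. The change of BCL2L11 with 34kp was below that with 34kn by -0.57 in the same test (adjusted p = 0.0244), from -0.25 with 34kp and 0.32 with 34kn, neither of which passed alone. That call was lost without any one of 6 of the 12 libraries (adjusted p of 0.0585 to 0.0656), while the MCL1 call held without each. Both calls were lost with replicate number fitted as a block (adjusted p = 0.0745 for MCL1 and 0.103 for BCL2L11). Each experiment has its own controls, and the control libraries of the experiments did not overlap in either gene (MCL1 237 to 274 against 162 to 164 bin CPM, BCL2L11 17.5 to 22.1 against 29.7 to 31.6). The control groups were not tested against each other. The share of all genes whose controls do not overlap was not computed, so these genes are not shown to stand out.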

How the results depend on the processing

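Of 710 values of single genes under alternatives, 661 kept their direction, or stayed within their error of 0, and their side of the threshold, 27 lost the call, 18 gained it and 4 reversed. The number of called members with NMYB was 3, against 1 with no filter on low counts and 1 with DESeq2, and 1 to 3 on leaving out a library. For 34kn it was 0, against 3 with no filter (BAX, BCL2L11 and BBC3), 2 with DESeq2 and 0 to 3 on leaving out a library. For 34kp it was 1, against 2 with no filter and 0 to 2 on leaving out a library. The interaction gave 2, against 3 with no filter, 3 of the 9 members tested with DESeq2 and 1 to 4 on leaving out a library. The number of member genes with changed exon usage in 34kn was 1, against 0 with limma voom and 0 to 2 on leaving out a library. Fits without a library have fewer samples, and the cause of these differences was not tested. On leaving out a library, the log2 difference between NMYB and MYB ranged from -0.0020 to 0.0714 for BCL2L1 and from -0.0199 to 0.0881 for BAK1, and the BAD difference from -0.378 to 0.0856 for 34kn and from -0.101 to 0.293 for 34kp.

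Replicate numbers are shared between groups, but libraries of one number did not deviate together (r of -0.19 to 0.10 over the compared groups), so they were not taken as pairs. With the replicate block, 0 members were called for 34kp (MCL1 adjusted p = 0.163; 71 genes in all against 392), 0 in the interaction (105 genes against 1102) and 0 for exon usage in 34kn (606 genes against 826).

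Over all genes, no filter gave 656 calls and DESeq2 436 for NMYB against MYB, where edgeR gave 181. For 34kn they gave 1572 and 1263 against 0, for 34kp 997 and 889 against 392, and for the interaction 2085 and 2010 against 1102. The fit of only the compared groups gave 60 and the replicate block 1184 for NMYB against MYB, and the fit of all 12 libraries gave 817 for 34kp. On leaving out a library the numbers ran from 0 to 323 for NMYB against MYB, 0 to 2982 for 34kn, 46 to 1175 for 34kp and 380 to 2747 for the interaction. Genes with changed exon usage ran from 111 to 2646 in 34kn and from 3 to 34 in 34kp, where the block gave 4 against 10. Depth limits BCL2 most, at 16 to 54 counts a library.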
